A study of Mus musculus with 18 samples.

Results

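The 39 genes described here encode the protein folding machinery of the endoplasmic reticulum (ER) and the sensors of the unfolded protein response. They were listed by name: chaperones and their cofactors, disulfide and prolyl isomerases, the translocon and signal peptidase, ER-associated degradation, and the stress sensors. Of these, 38 had a transcript cluster (the array's unit for 1 transcribed locus) annotated to that gene alone, out of 22180 genes with such a cluster, and all 38 were bright enough to be tested. Pdia4, a protein disulfide isomerase, was named only in clusters of several genes and was not analysed here. No measured value was used to choose the genes, although the choice was made with earlier results of these data known.

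Total RNA of handpicked pancreatic islets, from mice of the Garvan Institute colonies, was hybridised to Affymetrix arrays of the Mouse Gene ST design. Leptin receptor-deficient C57BL/KsJ db/db mice were compared with C57BL/KsJ controls, and leptin-deficient C57BL/6J ob/ob mice with C57BL/6J controls, each at 6 and 16 weeks of age, with 2 arrays in each of the 8 groups. A second table, under a different array platform, held a single db/db array and a single control array, both of C57BL/KsJ mice at 16 weeks. The strain differs between the models, so mutation and strain cannot be told apart when db/db is set against ob/ob. Nothing in the labels tells separate animals from pooled islets or repeated hybridisations, so p-values measure only the spread between these samples, which may be technical.

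Insulin is folded in the ER of the beta cell, which makes this tissue a heavy user of the machinery. When unfolded proteins build up, the sensor IRE1 (Ern1) splices the mRNA of the factor XBP1, ATF6 is cut to release a second factor, and PERK slows translation and favours ATF4. XBP1 and cleaved ATF6 switch on chaperones, translocation and degradation genes, many of them through the ER stress response element of their promoters. On the log2 scale used here a difference of 1 is a doubling, and levels of different genes are not compared, because probes differ in brightness.

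The element consists of the boxes CCAAT and then CCACG with 9 bases of any kind between them. It was searched on both strands of RefSeq promoter windows, from 250 bases before to 50 after the annotated start (build GRCm38.p6), which were given for 31 of the 39 genes. The element stood in the windows of 9 of the 31 genes (29.0%) and of 37 of all 27025 genes with a window (0.137%). The 9 genes were Calr, Canx, Creld2, Derl3, Dnajc3, Hsp90b1, Hspa5, Pdia6 and Syvn1, and Hsp90b1 held 2 copies. The next lines show 5 of them, which include the genes with large differences below (Derl3, Creld2, Syvn1), the best known target (Hspa5) and a further co-chaperone (Dnajc3). Each line is read on the strand of the gene, and capitals mark the pair of boxes, which read CGTGG and then ATTGG where the element runs on the opposite strand.
Hspa5, chr2:34772010-34772058, plus strand: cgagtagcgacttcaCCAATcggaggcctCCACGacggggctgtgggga
Dnajc3, chr14:118937812-118937860, plus strand: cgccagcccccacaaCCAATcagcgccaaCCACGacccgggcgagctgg
Syvn1, chr19:6046517-6046565, plus strand: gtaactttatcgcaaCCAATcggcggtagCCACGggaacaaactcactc
Creld2, chr15:88819505-88819553, plus strand: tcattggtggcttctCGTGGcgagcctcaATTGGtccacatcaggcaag
Derl3, chr10:75893227-75893275, plus strand: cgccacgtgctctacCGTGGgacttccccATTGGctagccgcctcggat

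The element ran in the forward direction in Hspa5, Dnajc3 and Syvn1 and in reverse in Creld2 and Derl3. A shorter relative, ERSE-II, in which 1 base stands between ATTGG and CCACG, was found in Herpud1 and Dnajb11 (2 of 31 genes, 6.45%, against 0.0444% of all genes). The box CCACG by itself, which both elements contain, was found for 27 of the 31 genes (87.1%) and for 35.5% of all genes with a window. A match describes letters and not a bound site.

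The arrays were close in median signal and unlike in their content of other cells. Array medians ran from 3.51 to 3.83 (log2), with the highest on lean KsJ replicate 2 of 16 weeks. Ins2 stayed between 11.60 and 12.20, Gcg between 13.09 and 13.48 and Sst between 12.97 and 13.44 on all 16 arrays. The mean of 10 beta cell genes varied more, from 10.85 to 11.70, and that of 4 alpha cell genes from 8.72 to 10.18. The mean of 22 acinar genes (digestive enzymes, led by Ctrb1 and Ctrl) ran from 7.31 to 11.97, with the highest value on lean KsJ replicate 2 of 16 weeks. The mean of 14 enterocyte genes (intestinal lining, led by Anpep and Vil1) was 10.08 on lean 6J replicate 2 of 6 weeks and 8.46 on db/db replicate 2 of 16 weeks, against 4.30 at the lowest. Plasma and B cell genes, whose cells are rich in the same ER proteins, averaged 2.88 to 4.31 on any array, near the brightness filter of 2.99. The Y-linked gene Uty read between 7.25 and 7.86 on 5 arrays but no more than 3.60 on the remaining 11, so sex was not balanced between db/db and lean KsJ groups or at 6 weeks between ob/ob and lean 6J groups, whereas no array of the 16-week 6J groups had high Uty. In islets as a whole, a lower share of a cell type and less RNA per cell cannot be told apart.

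Most of the 38 genes were higher in obese than in lean islets, in both models and at both ages. The estimate lay above 0 for 33 genes in db/db and 36 in ob/ob at 6 weeks, and for 35 in db/db and 36 in ob/ob at 16 weeks, where 46.9%, 49.6%, 65.7% and 47.5% of all 15526 genes tested lay above 0, in the same order. The median difference of the 38 genes was 0.27 and 0.37 at 6 weeks and 0.54 and 0.58 at 16 weeks, against medians over all genes of -0.02, -0.00, 0.18 and -0.03. Both obese arrays exceeded both lean arrays for 23 and 18 of 38 genes at 6 weeks, in db/db and ob/ob islets, where 21.9% and 19.9% of all genes did so. At 16 weeks they did for 25 genes in db/db islets (32.8% of all genes) and for 34 in ob/ob islets (28.2% of all genes).

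**Figure D1:**
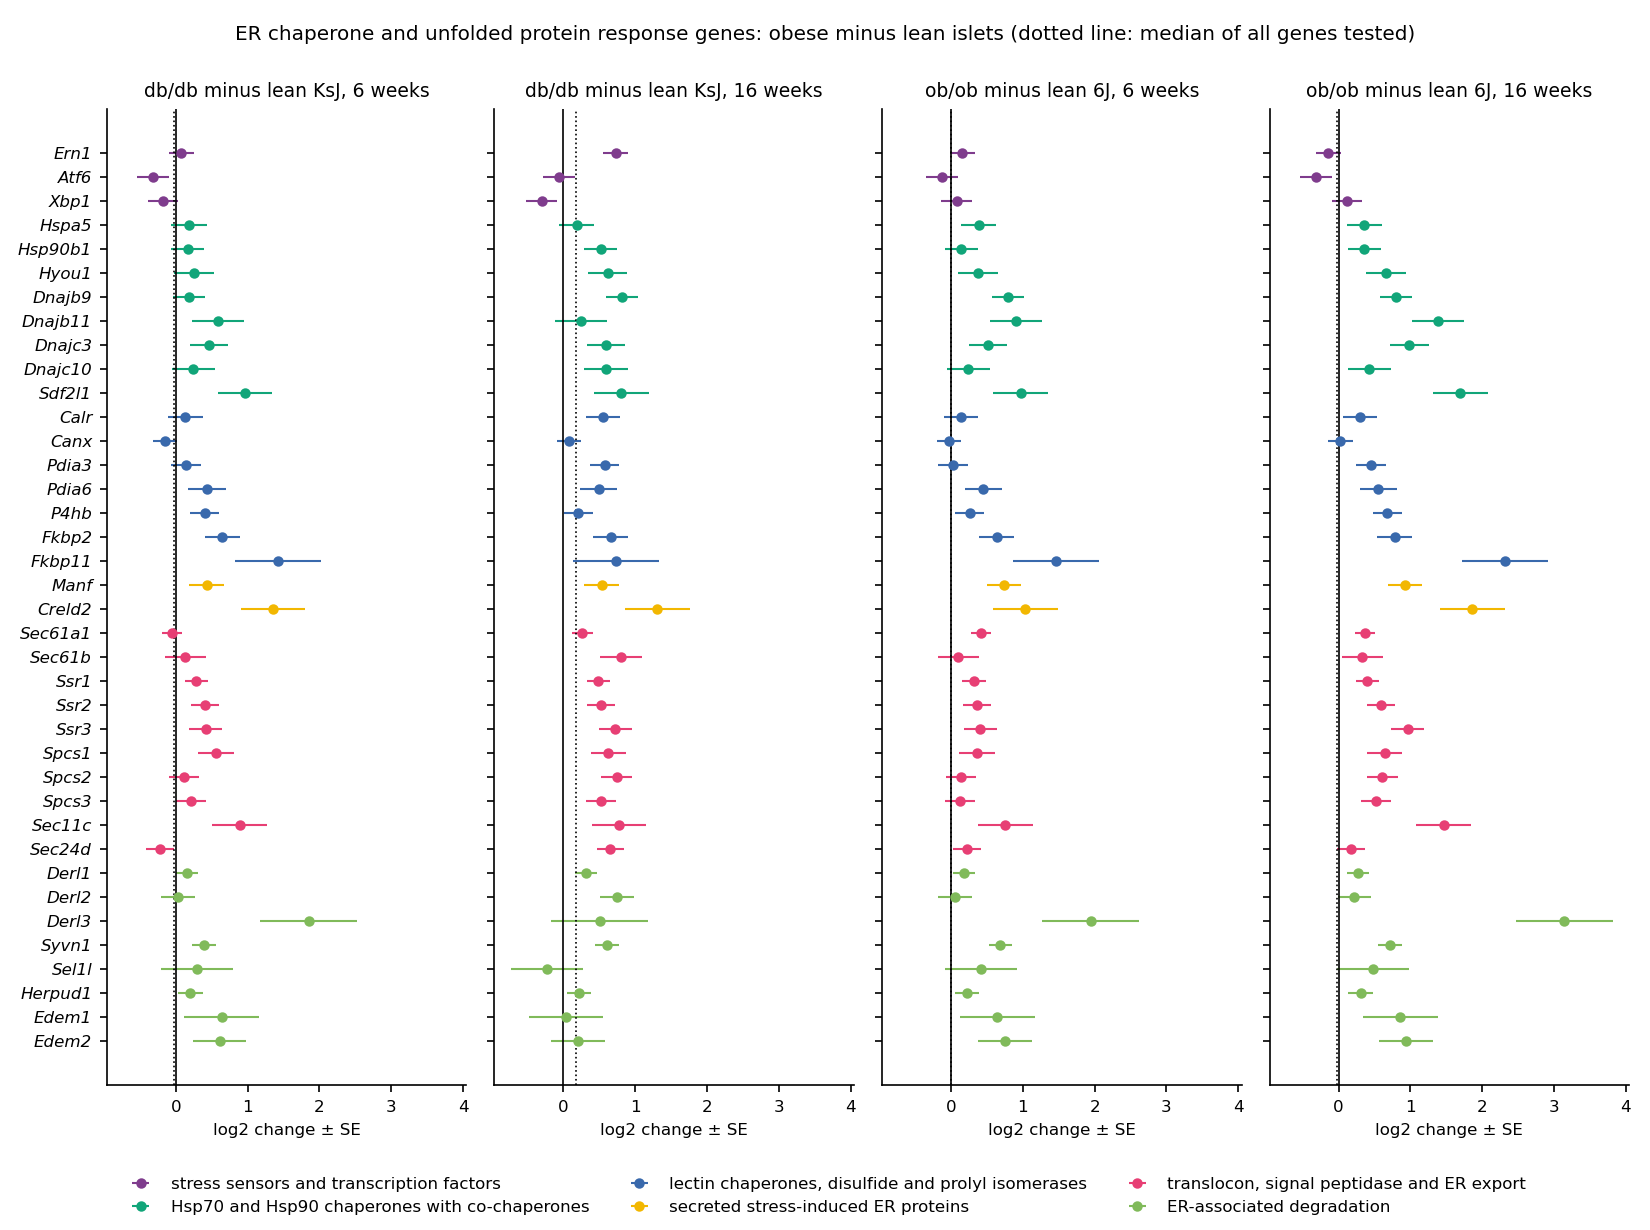
Log2 change (horizontal axis) of each of the 38 genes (rows, coloured by role) in the 4 obese minus lean comparisons; bars are standard errors, the solid line marks 0 and the dotted line the median of all genes tested. Most points lie to the right of 0 in each panel, and the widest spread, up to 3.14 for Derl3, is in 16-week ob/ob islets.

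Few of these differences passed the test over all genes (limma, Benjamini-Hochberg adjusted p below 0.05). Of the 38 genes, 1 (Ern1) passed in db/db islets at 16 weeks, where 5.8% of all genes passed. In db/db islets at 6 weeks 0 of 38 passed (background 0.0258%), in ob/ob islets at 6 weeks 0 of 38 (background 0%) and at 16 weeks 0 of 38 (background 0.0708%). At an unadjusted p below 0.05 there were 8, 20, 10 and 21 genes for db/db at 6 and 16 weeks and ob/ob at 6 and 16 weeks, where 8.52%, 24.5%, 6.15% and 16.6% of all genes fell below it. The fit shares 1 estimate of the spread among all 8 groups. With the spread of the ob/ob and lean 6J arrays of 16 weeks alone, 15 of 38 genes passed where 8.33% of all genes did, and with weights that count less for variable arrays 24 passed where 19.1% did.

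Of the 3 sensors and factors of the response, Ern1 rose and the others had small differences of either sign. The change was in db/db islets at 16 weeks, where the lean arrays stood at 8.62 and 8.66 and the db/db arrays at 9.41 and 9.31, a log2 difference of 0.73 ± 0.17 (SE, n = 2 against 2; adjusted p = 0.0379). The groups did not overlap, and the separate pair of arrays differed the same way, 8.39 in lean and 9.04 in db/db. In ob/ob islets of 16 weeks Ern1 overlapped with the lean arrays, at 9.08 and 8.84 against 9.04 and 9.16. At 6 weeks the db/db arrays, 8.90 and 9.02, lay within the lean arrays, 8.73 and 9.03, and the ob/ob arrays, 9.11 and 9.03, overlapped with theirs, 9.07 and 8.75. The call on Ern1 was kept in 11 of 28 alternative settings, with an estimate between 0.46 and 0.85 and an adjusted p between 0.00787 and 0.533. It was lost under quantile normalization (0.46, adjusted p = 0.187), under median centring (0.53, adjusted p = 0.201), and on leaving out any of several single arrays, among them either db/db array (adjusted p = 0.156 and 0.118) and lean KsJ replicate 2 (adjusted p = 0.0871).

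Atf6 was below 0 in all 4 comparisons. In ob/ob islets of 16 weeks it read 9.80 and 9.60 against 9.84 and 10.19 in lean, so that both ob/ob arrays lay below both lean arrays, but the difference of -0.31 ± 0.22 did not pass (adjusted p = 0.527). In db/db islets of 6 weeks it read 9.55 and 9.51 against 10.06 and 9.61 (-0.31 ± 0.22, adjusted p = 0.732), also without overlap. At 16 weeks the db/db arrays, 10.08 and 9.85, overlapped with the lean arrays at 9.91 and 10.13. Xbp1, whose total mRNA is measured here and not its spliced form, differed by -0.18 and -0.30 in db/db and by 0.08 and 0.12 in ob/ob islets at 6 and 16 weeks, with adjusted p of 0.399 or above, and in db/db islets of 6 weeks both its arrays lay below both lean arrays, as also for Canx and Sec24d.

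The Hsp70 and Hsp90 chaperones and their co-chaperones were above 0 for 8 of 8 genes in all 4 comparisons (46.9% to 65.7% of all genes), with none past the test. Both obese arrays exceeded both lean arrays for 6 of 8 genes in db/db and 4 of 8 in ob/ob islets at 6 weeks, and for 5 of 8 and 8 of 8 at 16 weeks, where 21.9%, 19.9%, 32.8% and 28.2% of all genes did so, in the same order. BiP (Hspa5), the Hsp70 of the ER and the usual marker of the response, had smaller estimates than most of its cofactors at 16 weeks. Its 16-week ob/ob arrays read 10.42 and 10.45 and their lean controls 9.96 and 10.19 (0.36 ± 0.25, adjusted p = 0.51), whereas the db/db arrays, 10.82 and 10.24, overlapped with 10.67 and 10.03 in lean (0.19 ± 0.25, adjusted p = 0.679). Hsp90b1, which encodes GRP94, was higher by 0.36 in ob/ob and 0.52 in db/db islets at 16 weeks, and Hyou1, the nucleotide exchange factor GRP170, by 0.66 and 0.62, none of them past the test. For Hspa5 the db/db estimate at 16 weeks was -0.0047 under quantile normalization, so its direction there depends on the scaling.

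Larger differences were seen in the cofactors of BiP. Sdf2l1, a partner of the ER J-domain proteins, read 9.89 and 9.64 in lean 6J islets of 16 weeks and 11.41 and 11.51 in ob/ob, a difference of 1.70 ± 0.38 (adjusted p = 0.0854). At 6 weeks the ob/ob arrays disagreed, at 11.31 and 10.16 against 10.19 and 9.34 in lean, and overlapped with them. The db/db arrays read 10.96 and 11.45 against 10.49 and 9.997 at 6 weeks and 10.84 and 10.68 against 9.73 and 10.17 at 16 weeks, with the db/db arrays higher at both ages (0.96 ± 0.38 and 0.81 ± 0.38; adjusted p = 0.56 and 0.215).

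Dnajb9 encodes ERdj4, a J-domain cofactor of BiP. Its lean arrays of 16 weeks were at 10.41 and 9.88 (KsJ) and 10.29 and 10.63 (6J), and the obese arrays at 10.97 and 10.94 (db/db) and 11.31 and 11.21 (ob/ob). The differences, 0.81 ± 0.22 in db/db and 0.80 ± 0.22 in ob/ob, were almost equal, and neither passed (adjusted p = 0.0563 and 0.132). At 6 weeks the ob/ob arrays of Dnajb9, 10.63 and 10.87, lay above the lean arrays, 9.97 and 9.94, whereas the db/db arrays, 10.69 and 10.88, overlapped with 10.83 and 10.37 in lean. The other J-domain genes followed in ob/ob islets of 16 weeks, with 1.39 for Dnajb11, 0.99 for Dnajc3 and 0.43 for Dnajc10, and both ob/ob arrays lay above both lean arrays for each.

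**Figure D2:**
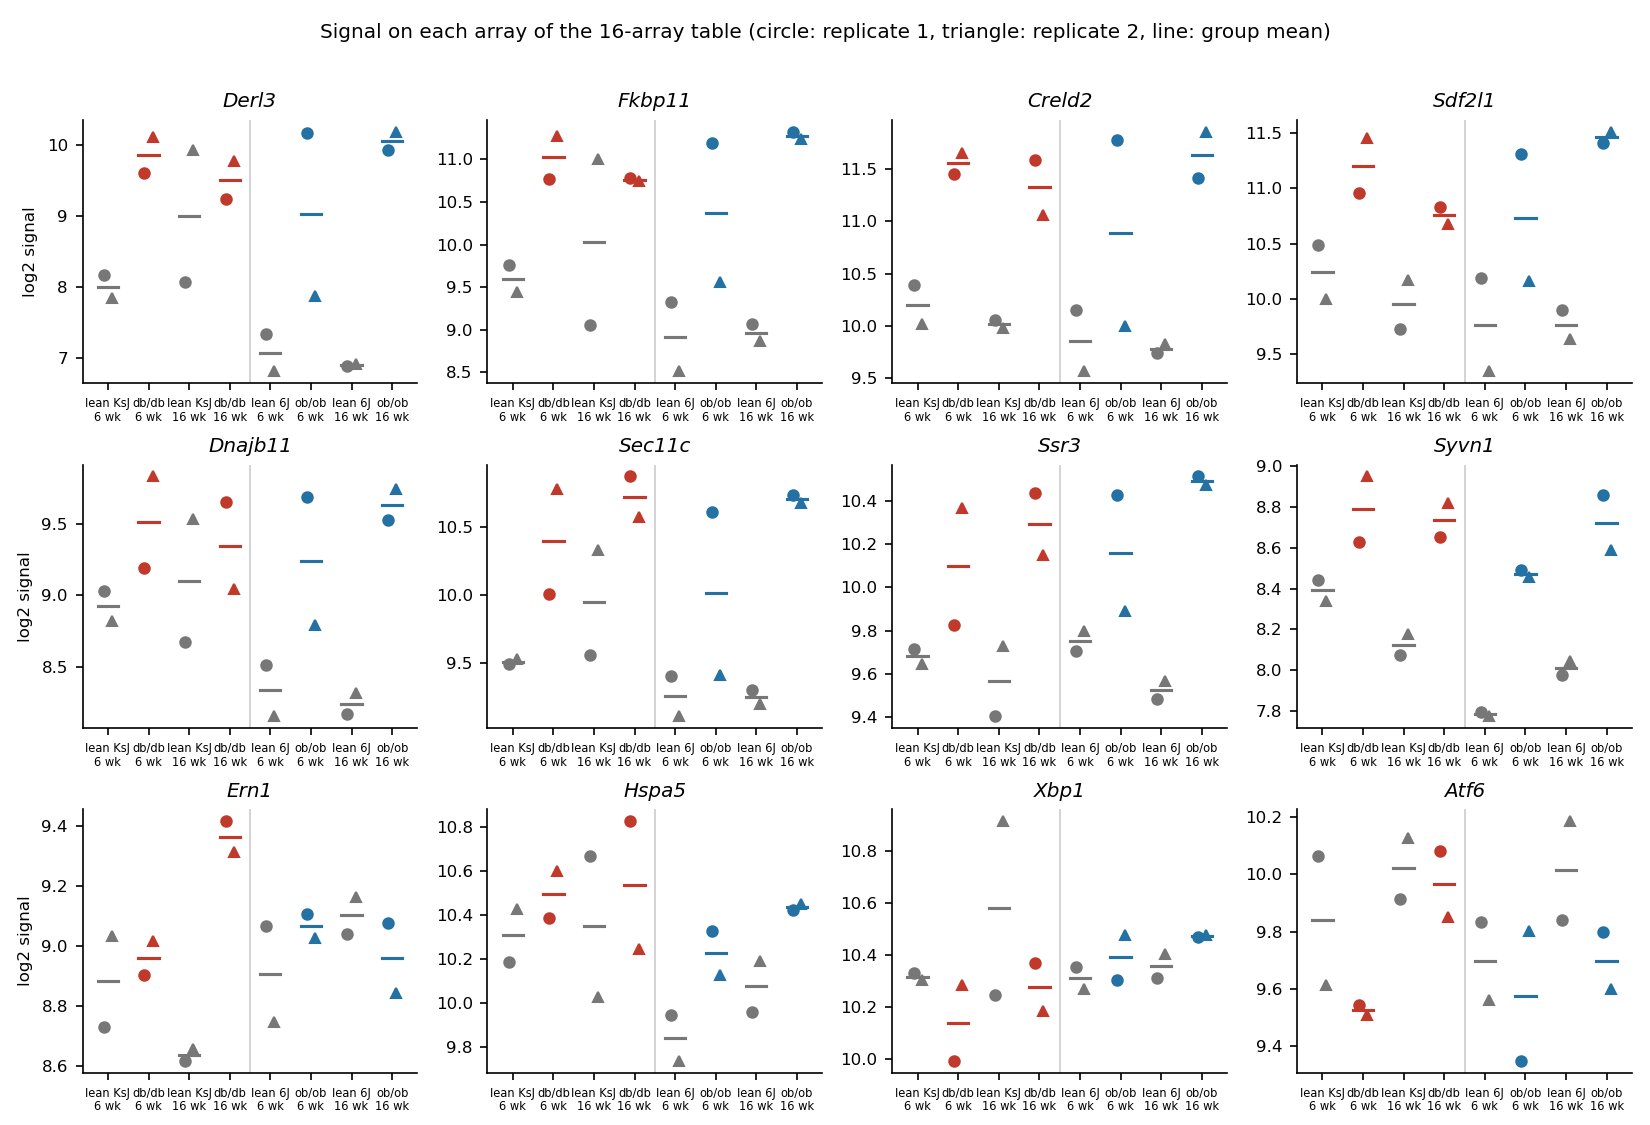
Log2 signal of 12 genes on each array of the 16-array table, by group, with a circle for replicate 1, a triangle for replicate 2 and a line at the group mean; each panel has its own axis. For Derl3 and Creld2 the ob/ob arrays of 16 weeks sit close together and above both lean arrays, while those of 6 weeks lie far apart.

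Among the lectin chaperones, disulfide isomerases and prolyl isomerases, all 7 genes measured were above 0 at 16 weeks in both models. Calnexin (Canx), a membrane lectin chaperone, had the smallest differences of the 7, 0.08 in db/db and 0.02 in ob/ob islets at 16 weeks, and calreticulin (Calr), its soluble relative, had 0.55 and 0.29. The disulfide isomerases Pdia3, Pdia6 and P4hb had 0.57, 0.49 and 0.21 in db/db and 0.45, 0.55 and 0.68 in ob/ob islets at 16 weeks. Fkbp2, an ER prolyl isomerase, was at 11.13 and 11.69 in db/db against 10.89 and 10.62 in lean islets at 6 weeks and at 11.30 and 11.33 against 10.46 and 10.85 at 16 weeks, without overlap (0.65 ± 0.25 and 0.66 ± 0.25; adjusted p = 0.545 and 0.129). Ob/ob arrays gave Fkbp2 at 11.55 and 10.91 against 10.65 and 10.53 at 6 weeks and at 11.63 and 11.55 against 10.82 and 10.80 at 16 weeks, so that its obese arrays exceeded their lean controls in all 4 comparisons. Fkbp11, a second prolyl isomerase, differed by 2.31 ± 0.60 in ob/ob islets at 16 weeks (adjusted p = 0.112) and by 1.43 ± 0.60 in db/db islets at 6 weeks (adjusted p = 0.573).

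Creld2 and Manf encode proteins that the stressed ER releases. Creld2 was at 9.73 and 9.82 in lean 6J and 11.42 and 11.86 in ob/ob islets of 16 weeks, a difference of 1.86 ± 0.45 (adjusted p = 0.101). The db/db arrays were at 11.45 and 11.66 against 10.39 and 10.01 at 6 weeks and at 11.58 and 11.06 against 10.06 and 9.98 at 16 weeks (1.35 ± 0.45 and 1.30 ± 0.45; adjusted p = 0.537 and 0.11). The 6-week ob/ob arrays were again unlike, with 11.78 far above and 9.9997 within the lean values of 10.15 and 9.56. Manf was at 6.59 on both ob/ob arrays of 16 weeks against 5.64 and 5.69 in lean, and at 6.42 and 6.07 against 5.57 and 5.44 at 6 weeks (0.93 ± 0.24 and 0.74 ± 0.24; adjusted p = 0.113 and 0.791). Db/db arrays gave Manf at 6.64 and 6.41 against 6.20 and 5.79 at 16 weeks, without overlap, and at 6.06 and 6.71 against 6.12 and 5.78 at 6 weeks, where the groups overlapped.

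The 10 translocon, signal peptidase and ER export genes were all above 0 at 16 weeks in both models. Both db/db arrays exceeded both lean arrays for 10 of 10, against 32.8% of all genes, and both ob/ob arrays for 9 of 10, against 28.2%. None passed over all genes, and 8 had an unadjusted p below 0.05 in each model (24.5% of all genes in db/db and 16.6% in ob/ob). Spcs2, a signal peptidase subunit, was at 9.43 and 9.21 in lean KsJ and 10.23 and 9.90 in db/db islets (0.74 ± 0.21, adjusted p = 0.0653), and at 9.54 and 9.70 in lean 6J and 10.17 and 10.29 in ob/ob islets (0.61 ± 0.21, adjusted p = 0.192). Ssr3, a subunit of the translocon-associated complex, was at 9.40 and 9.73 in lean KsJ and 10.43 and 10.15 in db/db islets (0.72 ± 0.23, adjusted p = 0.0871), and at 9.49 and 9.57 in lean 6J and 10.51 and 10.47 in ob/ob islets (0.96 ± 0.23, adjusted p = 0.0953). Sec11c, a catalytic signal peptidase subunit, had the largest difference of the 10 in ob/ob islets, 1.46.

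At 6 weeks these genes were less even. Sec61a1, the channel subunit of the translocon, read 11.93 and 12.04 on the ob/ob and 11.60 and 11.53 on the lean 6J arrays (0.42 ± 0.14, adjusted p = 0.791), without overlap. Its db/db arrays read 11.90 and 11.89 against 12.03 and 11.87 in lean, with overlap. Sec24d, part of the coat of ER export vesicles, was at 9.81 and 9.50 in db/db against 9.93 and 9.81 in lean islets at 6 weeks and at 9.76 and 9.97 against 9.39 and 9.02 at 16 weeks (-0.22 ± 0.19 and 0.66 ± 0.19; adjusted p = 0.79 and 0.0712). Ssr2 was higher in ob/ob islets at both ages, at 12.04 and 11.71 against 11.54 and 11.47 at 6 weeks and at 12.03 and 12.07 against 11.32 and 11.59 at 16 weeks, in each case without overlap. Sec61b had a dim cluster, at 4.25 to 5.61 over the 16 arrays, and its 16-week ob/ob arrays overlapped with the lean ones.

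Among the ER-associated degradation genes, Derl3 had the largest difference of all 38 genes. Derlin-3 belongs to the channel that returns misfolded proteins to the cytosol. Derl3 was at 6.89 and 6.92 in lean 6J and 9.92 and 10.18 in ob/ob islets of 16 weeks, a log2 difference of 3.14 ± 0.67 (8.84-fold; adjusted p = 0.0792). In db/db islets of 6 weeks it was at 9.60 and 10.11 against 8.17 and 7.85 in lean (1.85 ± 0.67, adjusted p = 0.539). The remaining groups were uneven. The lean KsJ arrays of 16 weeks read 8.07 and 9.93, with the db/db arrays at 9.24 and 9.77 between them, and the ob/ob arrays of 6 weeks read 10.17 and 7.88 against 7.34 and 6.81 in lean.

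Syvn1 encodes HRD1, the ubiquitin ligase of the same pathway, and varied less between replicates. It was at 8.65 and 8.82 in db/db against 8.07 and 8.18 in lean KsJ islets of 16 weeks, and at 8.63 and 8.95 against 8.44 and 8.34 at 6 weeks (0.61 ± 0.17 and 0.40 ± 0.17; adjusted p = 0.0546 and 0.573). The ob/ob arrays gave 8.86 and 8.59 against 7.98 and 8.04 at 16 weeks and 8.49 and 8.46 against 7.80 and 7.77 at 6 weeks (0.71 ± 0.17 and 0.69 ± 0.17; adjusted p = 0.088 and 0.791). The obese arrays exceeded the lean arrays in all 4 comparisons and in the second table (8.59 against 7.98).

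The other genes of degradation showed smaller or less steady differences. Herpud1, a scaffold of the ligase complex, read 11.27 and 11.16 on the 16-week ob/ob arrays and 10.93 and 10.88 on their lean controls (0.31 ± 0.17, adjusted p = 0.405), and its 16-week db/db arrays, 11.42 and 11.35, were above the lean arrays at 11.04 and 11.30 by 0.22. Derl2 was at 7.42 and 6.95 in db/db against 6.73 and 6.15 in lean islets of 16 weeks (0.75 ± 0.23, adjusted p = 0.0844), and differed by 0.22 in ob/ob islets. Sel1l, the adaptor of HRD1, and Edem1 and Edem2, which mark glycoproteins for disposal, had 0.48, 0.86 and 0.94 in ob/ob and -0.23, 0.04 and 0.20 in db/db islets of 16 weeks. Derl1 was higher by 0.27 in ob/ob and 0.32 in db/db islets at 16 weeks, with no overlap in either.

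**Figure D3:**
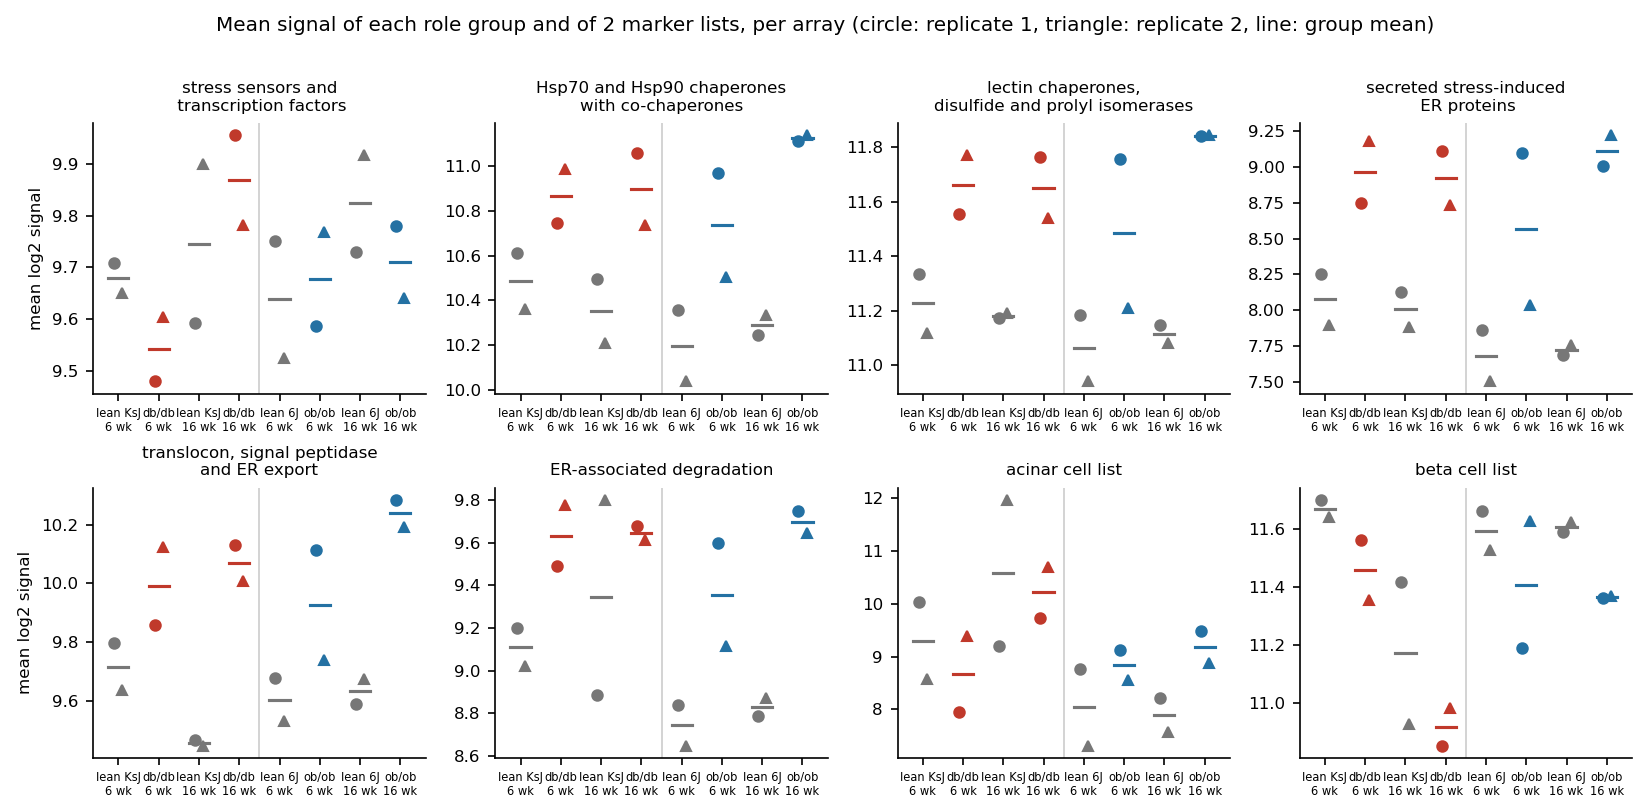
Mean log2 signal of each role group, and of the acinar and beta cell marker lists, on each array (circle for replicate 1, triangle for replicate 2, line at the group mean). The ob/ob arrays of 16 weeks lie above both lean arrays in every role group except the sensors and factors, and also in the acinar list.

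The genes with the promoter element were then set beside the others. At 16 weeks in ob/ob islets the median difference was 0.55 for the 9 genes with the element and 0.61 for the 21 measured genes with a window and no element. The medians in db/db islets of 16 weeks were 0.52 and 0.63. At 6 weeks the order was the other way, with 0.40 and 0.29 in db/db and 0.45 and 0.32 in ob/ob islets. The genes printed above ranged from Hspa5, at 0.36 in ob/ob islets of 16 weeks, to Derl3, at 3.14, and the 9 also held Canx, at 0.02.

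Several genes with large differences also varied widely between replicates. Between the lean KsJ arrays of 16 weeks, Sel1l was higher on replicate 2 by 2.21, Edem1 by 2.16, Fkbp11 by 1.95, Derl3 by 1.86 and Edem2 by 1.20, whereas Dnajc10 and Hyou1 were lower there (-1.11 and -0.91). The acinar mean was 9.21 on replicate 1 and 11.97 on replicate 2. Between the ob/ob arrays of 6 weeks, 30 of 38 genes were lower on replicate 2, where 54% of all genes were higher on it. The lowest values were -2.29 for Derl3, -1.78 for Creld2 and -1.63 for Fkbp11. There the acinar mean was 9.13 on replicate 1 and 8.56 on replicate 2, and the mean of 10 beta cell genes 11.19 and 11.63. Replicate 1 exceeded both lean arrays for 32 of 38 genes (36.8% of all genes), and replicate 2 for 22 (35.2% of all genes).

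**Figure D4:**
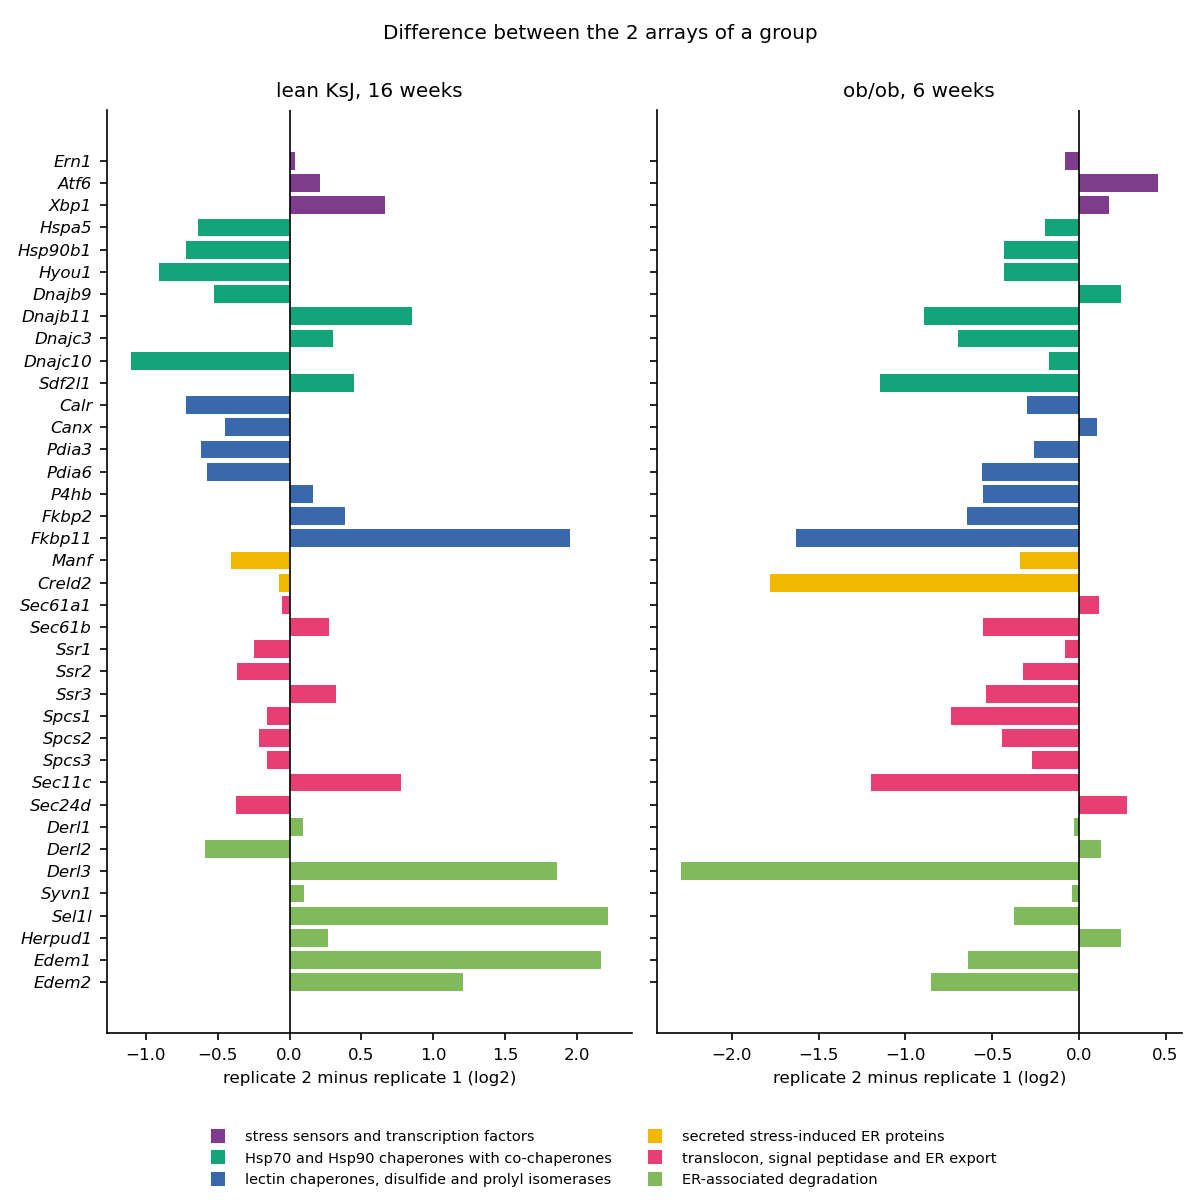
Log2 difference between replicate 2 and replicate 1 (bars) of each of the 38 genes in the lean KsJ group of 16 weeks and the ob/ob group of 6 weeks. The differences run from -1.11 to 2.21 in the first, with both signs equally common, and from -2.29 to 0.45 in the second, where most bars point left.

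Genes of other cells also differed between the groups compared, and their part in the results was not tested. At 16 weeks 21 of 21 tested acinar genes were above 0 in ob/ob islets, with array means of 9.48 and 8.89 against 8.22 and 7.58 in lean. In a fit that also took the acinar and enterocyte means into account, the ob/ob difference at 16 weeks was above 0 for 34 of 38 genes with a median of 0.58, and Derl3 had 2.42, Creld2 1.76, Fkbp11 1.61 and Sdf2l1 1.37. The acinar genes pointed the other way in db/db islets of 6 weeks, with 18 of 21 below 0 and a median of -0.72. The acinar means there were 7.95 and 9.39 on the db/db arrays, where Derl3 was at 9.60 and 10.11, and 10.04 and 8.57 on the lean arrays, where Derl3 was at 8.17 and 7.85. Within each of these groups Derl3 was higher on the array with the higher acinar mean. The same order held in every other group of the 16 arrays except the lean 6J and ob/ob groups of 16 weeks. Each group has only 2 arrays and Derl3 is 1 of 38 genes, and a link was not tested.

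In 16-week db/db islets, where 65.7% of all genes lay above 0 and 5.8% passed the test, several lists of other cells differed. The enterocyte means were 6.25 and 8.46 against 4.38 and 5.78 in lean, with 13 of 13 tested genes above 0 and 1 past the test. The beta cell means were 10.85 and 10.98 against 11.42 and 10.93, with 1 of 10 genes past the test, lower. Of 4 duct cell genes 1 passed, higher. Stellate and matrix genes averaged 6.37 and 7.60 against 4.98 and 5.23, with 8 of 8 above 0, a median difference of 1.80 and 5 past the test. Macrophage genes averaged 6.65 and 6.34 against 5.62 and 5.04, with 10 of 10 above 0, a median of 1.15 and 4 past the test, and endothelial genes had 7 of 7 above 0, a median of 0.66 and 2 past the test. In 16-week ob/ob islets the beta cell means were 11.36 and 11.37 against 11.59 and 11.62. The means of 4 alpha cell genes were 9.22 and 9.34 against 10.18 and 10.08 (median difference -0.86), and those of 4 delta and PP cell genes 10.62 and 10.62 against 11.13 and 11.12, with 4 of 4 below 0 and none of either list past the test.

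The 16-week db/db comparison depended on lean KsJ replicate 2, the array rich in acinar genes. A fit was made without it and without lean 6J replicate 2 and ob/ob replicate 1 of 6 weeks, 3 arrays that earlier results of these data had set apart by their acinar, enterocyte or islet identity genes. In it 5 of 38 genes passed in db/db islets of 16 weeks where 5.69% of all genes did. These were Fkbp11 (1.71, adjusted p = 0.0125), Sel1l (0.88, adjusted p = 0.0322), Derl3 (1.44, adjusted p = 0.0336), Creld2 (1.27, adjusted p = 0.043) and Edem1 (1.12, adjusted p = 0.0472), while Ern1 no longer passed (0.75, adjusted p = 0.0636). The lean KsJ group then held 1 array, assumed to vary like the other groups, and this array had high Uty while the db/db arrays did not. Leaving out lean KsJ replicate 1 instead, so that only the acinar-rich array stood for lean islets, 16 of 38 genes passed where 30.2% of all genes did, with Sel1l at -1.34 and Edem1 at -1.05. The direction for Sel1l and Edem1 in db/db islets of 16 weeks is therefore set by which lean array is used. The same holds for Fkbp11, Derl3 and Edem2, which were higher on lean KsJ replicate 2 than on replicate 1 by 1.95, 1.86 and 1.20. It also holds for genes with small differences, among them Hspa5 and Canx.

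The same fit without the 3 arrays left both groups of the 16-week ob/ob comparison whole. There 16 of 38 genes passed where 7.63% of all genes did, all of them higher in ob/ob islets, led by Derl3 (adjusted p = 0.00107), Fkbp11 (0.00152), Creld2 (0.00589) and Sdf2l1 (0.00715). The other 12 were Sec11c, Dnajb11, Ssr3, Hyou1, Dnajc3, Edem2, Syvn1, Dnajb9, Manf, P4hb, Edem1 and Fkbp2. With both groups whole the estimates did not change, only the shared spread. That spread lost arrays on which several of these genes varied widely, such as Derl3 (-2.29) and Creld2 (-1.78) between the ob/ob arrays of 6 weeks. The 3 arrays were chosen from these data, so the adjusted p of this fit are no independent support. In db/db islets of 6 weeks 3 of 38 passed where 0.805% of all genes did, namely Derl3 (adjusted p = 0.0239), Fkbp11 (0.0266) and Creld2 (0.0451).

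The second table, with its single pair of 16-week KsJ arrays, gave differences with no replicate check. Of 38 genes, 32 were higher on the db/db array, where 56.6% of all genes were, with a median of 0.58 against 0.09 over all genes. Dnajc10, Dnajb9 and Hyou1 led with 0.97, 0.91 and 0.88, and Sel1l, Edem1 and Derl3 were lower on the db/db array (-0.98, -0.58 and -0.49). Its lean array had an acinar mean of 11.78 and its db/db array 10.83. The pair differed more in enterocyte genes, with a mean of 4.38 on the lean and 8.69 on the db/db array. The beta cell mean was 10.40 on the lean and 9.95 on the db/db array, and the stellate and matrix mean 6.61 and 7.88. The part of these other cells in the differences of this pair was not tested. With both tables in 1 fit and the table as a block, 15 of 38 genes passed in db/db islets of 16 weeks where 13.4% of all genes did, led by Ern1 (0.70, adjusted p = 0.00787), Dnajb9 (0.85, adjusted p = 0.0101) and Syvn1 (0.61, adjusted p = 0.0115).

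The difference between obese and lean islets was then compared between the models and between the ages. None of the 38 genes passed in any of these 4 tests, where 0%, 0.0129%, 0.00644% and 0% of all genes passed for db/db against ob/ob at 6 and 16 weeks and for 16 against 6 weeks in db/db and ob/ob. At 16 weeks the db/db difference exceeded the ob/ob difference for 15 of 38 genes, with a median of -0.08 against 0.25 over all genes. The extremes were Ern1, with 0.87 (adjusted p = 0.19), and Derl3, with -2.64 (adjusted p = 0.251), and leaving out lean KsJ replicate 2 or 1 gave -1.71 or -3.57 for Derl3. At 6 weeks the median of the difference between models was -0.03, and Sec61a1 (-0.48) and Dnajb9 (-0.62) had the smallest p-values. At 16 against 6 weeks the obese minus lean difference was larger by 0.87 for Sec24d and 0.65 for Ern1 in db/db islets, and by 0.56 for Ssr3 and 0.47 for Spcs2 in ob/ob islets, none past the test.

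**Figure D5:**
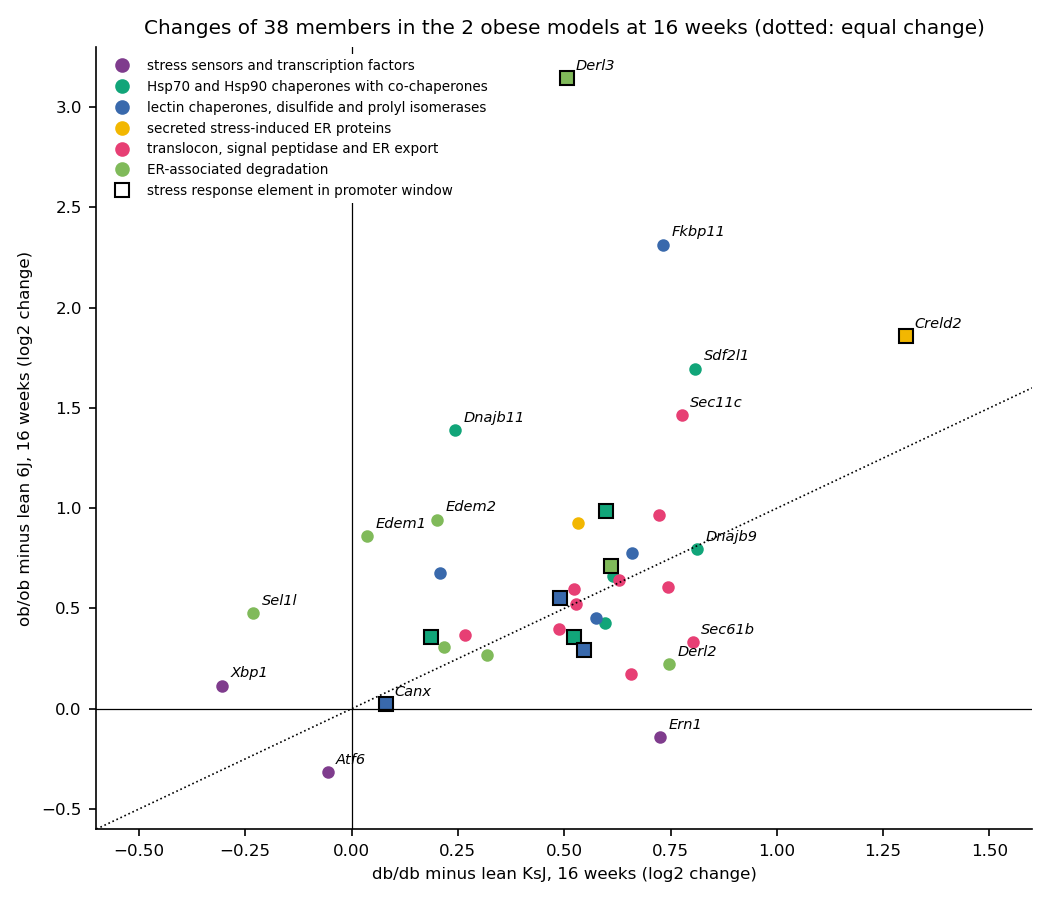
Log2 change of each of the 38 genes at 16 weeks, db/db minus lean KsJ on the horizontal and ob/ob minus lean 6J on the vertical axis, coloured by role; squares hold the ER stress response element and the dotted line marks equal change. Derl3 lies far up on the ob/ob axis (3.14, against 0.51 in db/db), and Ern1 lies below the dotted line (0.73 in db/db, -0.14 in ob/ob).

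Between 16 and 6 weeks none of the 38 genes passed the test in any group, where 0.0644% of all genes passed in db/db and 0% in ob/ob, lean KsJ and lean 6J islets. At an unadjusted p below 0.05 there were 1, 3, 3 and 2 of the 38 genes in those groups, where 7.61%, 3.9%, 26.3% and 2.87% of all genes fell below it. In ob/ob islets 37 of 38 genes were higher at 16 than at 6 weeks, with a median of 0.27, against 48.4% of all genes. The median was 0.12 without replicate 2 of 6 weeks and 0.43 without replicate 1. Herpud1 was among the most separated by age, at 10.60 and 10.29 in lean 6J islets of 6 weeks against 10.93 and 10.88 at 16 weeks, and at 10.55 and 10.79 in ob/ob islets of 6 weeks against 11.27 and 11.16. These comparisons share their arrays with the ones above.

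Lean islets of the 2 strains were also set against each other, where strain cannot be told apart from the code in the array titles. None of the 38 genes passed at 6 weeks (background 0.258%) or at 16 weeks (background 4.12%), and 4 and 6 had an unadjusted p below 0.05, where 6.65% and 29.5% of all genes did. At 6 weeks Syvn1 was higher in KsJ islets, at 8.44 and 8.34 against 7.80 and 7.77, and so was Herpud1, at 11.03 and 11.13 against 10.60 and 10.29. At 16 weeks Ssr2 was lower in KsJ islets, at 11.03 and 10.66 against 11.32 and 11.59, and Derl3 higher, at 8.07 and 9.93 against 6.89 and 6.92, a gap that was 1.16 without lean KsJ replicate 2.

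Genes of the same pathways outside the 39 were counted from 4 further lists. Of 38 tested genes of translocation, degradation and export, 5 passed in db/db islets of 16 weeks, where 5.8% of all genes did, all higher: Kdelr3 (2.52, adjusted p = 0.0268), a receptor that returns ER proteins from the Golgi, Erlec1 (1.06, adjusted p = 0.0343), an ER lectin, Srprb (0.94, adjusted p = 0.0357), part of the signal recognition particle receptor, Ufd1 (0.86, adjusted p = 0.0469), a cofactor of the extraction ATPase VCP, and Sec11a (1.02, adjusted p = 0.0481), a signal peptidase subunit. All 38 lay above 0, as did 65.7% of all genes, with a median of 0.48. Kdelr3 read 8.94 and 8.86 in db/db against 5.87 and 6.89 in lean islets, and in ob/ob islets of 16 weeks 8.69 and 8.88 against 6.19 and 6.12 (2.63, adjusted p = 0.0701).

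Of 32 folding, oxidation and glycosylation genes, 2 passed in db/db islets of 16 weeks, near the 5.8% of all genes. They were Prkcsh (1.61, adjusted p = 0.047), a glucosidase subunit, and Rpn1 (0.92, adjusted p = 0.0447), an oligosaccharyltransferase subunit. The median of the 32 was 0.52, against 0.18 over all genes. Prkcsh was at 9.37 and 7.94 in lean and at 10.45 and 10.07 in db/db islets. Of 14 other sensors, proteases and factors, 2 passed (5.8% of all genes), Creb3 (0.91, adjusted p = 0.0233) and Creb3l2 (0.67, adjusted p = 0.0473), both membrane-bound factors cleaved in the manner of ATF6, and the median was 0.26.

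In the PERK and ATF4 arm the medians at 16 weeks were at or below those of all genes. Of its 25 tested genes, 14 were above 0 in db/db islets of 16 weeks with a median of 0.12, and 12 in ob/ob islets with a median of -0.03, where the medians of all genes were 0.18 and -0.03. At 6 weeks 19 were above 0 in db/db islets with a median of 0.11, and 16 in ob/ob islets with a median of 0.21, both above the all-gene medians of -0.02 and -0.00. In db/db islets of 16 weeks 1 gene of the 25 passed, against 5.8% of all genes: Chac1 (1.29, adjusted p = 0.0339), a glutathione-degrading ATF4 target, at 7.88 and 7.96 against 7.10 and 6.16 in lean. On the ob/ob arrays of the same age Chac1 was at 7.59 and 7.38 against 8.12 and 7.76 in lean, and Trib3, another ATF4 target, was at 4.33 and 4.48 against 5.33 and 5.07 (-0.80, adjusted p = 0.183). Ddit3, which encodes CHOP, was at 7.71 and 6.79 in db/db against 7.81 and 6.80 in lean islets, with overlap. The ER stress response element was in the window of 0 of the 21 genes of this arm that had one.

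In ob/ob islets 0 genes of the 4 lists passed at 16 weeks in limma's test, with 12 of 32, 13 of 38, 1 of 14 and 3 of 25 at an unadjusted p below 0.05 for folding, translocation, other sensors and the PERK arm, where 16.6% of all genes fell below it. The medians were 0.44, 0.37, -0.02 and -0.03 in that order. The smallest adjusted p was that of Selenos (1.08, adjusted p = 0.0564), an ER membrane protein of the degradation complex, at 10.09 and 10.14 against 8.99 and 9.07 in lean. Mogs, the first glucosidase of glycan trimming, had 1.48 (adjusted p = 0.0785).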

How the data were processed

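Islet RNA on 18 arrays was measured per transcript cluster. The authors' deposited values are log2 signals, going by their range. RMA, MAS5 and Partek appear in the submitters' processing notes, with no version or role. The 2 tables stand under different array platforms and may have been normalized separately, so tests stayed within the 16-array table except in 1 alternative. Of 41034 clusters the platform annotation gave 1 gene for 23521, several for 1814 and no row for 15699. The cluster with the highest mean stood for a gene, which matters for Derl2, Edem1, Sec61b, Spcs2 and Ssr1. In db/db islets of 16 weeks their kept clusters gave 0.75, 0.04, 0.80, 0.74 and 0.49, in that order. The other clusters gave 0.37, -0.11, 0.08, 1.04 and 0.79. At 6 weeks Derl2 and Spcs2 had 0.03 and 0.11 on the kept and -0.36 and -0.56 on the other cluster. In ob/ob islets all these clusters were above 0 at both ages. The other clusters of Edem1 and Sec61b were dim, with means of 3.07 and 3.30. Genes under the 30th percentile of the mean (log2 2.99) were left out.

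Group means were fitted to the 16 arrays with limma 3.58.1 (R 4.3.3), with 8 residual degrees of freedom and eBayes moderation, two-sided, for 15526 genes. Array number, 2 per group, limits the precision. Members and lists were chosen with earlier results of these data known. Members called or with the smallest p in a comparison (4 for obese against lean, 2 otherwise) are given array by array, as are listed pathway genes that passed. Other members shown as values, and Canx, Hspa5 and Xbp1, stand for their role. Marker lists covered beta, alpha, delta, acinar, duct, enterocyte, plasma and B, macrophage, endothelial and matrix cells. The fit was tested on simulated data. Alternatives changed filter, scaling, variance model, cluster choice, tables, covariates and arrays.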

Additional observations from a re-analysis of the deposited data

How the results depend on the processing

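Over 28 alternatives, 16 of which left out 1 array each, the median of the 38 genes stayed above 0 in each of the 4 obese against lean comparisons. In db/db islets of 16 weeks the count of the 38 genes past the test was 1 as reported (5.8% of all genes). It was 0 with no brightness filter, with quantile normalization, with median centring, with array weights and when the compared groups were fitted by themselves. It was 2 without variance moderation and with covariates, and 5 when the filter was raised to the 50th percentile and with trended robust moderation. The share of all genes is not given for these counts of 2 and 5, so they are no result about the 38 genes. With both tables joined the count was 15, where 13.4% of all genes passed. In ob/ob islets of 16 weeks it was 0 as reported, 15 with the groups alone (8.33% of all genes), 24 with array weights (19.1%) and 16 without the 3 arrays (7.63%). Without these 3 arrays it was 3 in db/db islets of 6 weeks (0.805% of all genes), and the count for ob/ob age moved too. Leaving out 1 array gave 0 to 16 in db/db and 0 to 5 in ob/ob islets of 16 weeks, 0 to 1 in ob/ob islets of 6 weeks, 0 to 12 for lean KsJ age, 0 to 15 for lean strains at 16 weeks, 0 to 7 for the models at 16 weeks and 0 to 5 for the db/db effect by age. The highest of these came without lean KsJ replicate 1 of 16 weeks, except in ob/ob islets of both ages, where an ob/ob array of 6 weeks was left out. Where the count was 16, 30.2% of all genes passed. The share is not given for the other highest counts, so they are no result about the 38 genes.

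The median under quantile normalization was 0.34 in db/db and 0.42 in ob/ob islets of 16 weeks, 0.0043 for lean KsJ age and -0.0495 for the db/db effect by age. Under median centring it was 0.34 in db/db islets of 16 weeks, 0.013 for lean KsJ age and -0.33 between models at 16 weeks. Both scalings moved the all-gene median of that db/db comparison from 0.18 to -0.02. With covariates the median was 0.23 in ob/ob islets of 6 weeks and -0.0657 between lean strains of 6 weeks. Without the 3 arrays it was 0.12 in ob/ob islets of 6 weeks, 0.43 for ob/ob age, 0.26 between models at 6 weeks and 0.49 for the ob/ob effect by age. Leaving out 1 array, it ranged from 0.20 to 0.42 in db/db and 0.17 to 0.53 in ob/ob islets of 6 weeks, 0.12 to 0.43 for ob/ob age, 0.0506 to 0.30 between lean strains of 6 weeks, -0.28 to 0.17 between models at 6 weeks and 0.0474 to 0.41 for the ob/ob effect by age. The cause was not tested. No paired analysis was possible because the labels number no replicates across groups.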
